A study of Mus musculus with 9 samples.

Results

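The replication-dependent histone genes were followed across 9 one-colour arrays of mouse pro-B cells. Members were the genes whose name in the array files begins with Hist1h, Hist2h, Hist3h or Hist4h. They numbered 37 of the 27398 gene names on the array, and were covered by 46 of its 41174 probes. The rule used names only and no measured value, but it was chosen with earlier results of these data known. By family, 7 probes of 6 genes belonged to linker histone H1, 17 probes of 12 genes to H2A, 11 probes of 10 genes to H2B, 3 probes of 3 genes to H3 and 8 probes of 6 genes to H4. All 46 probes matched a RefSeq gene, 39 by accession and 7 by an older symbol.

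The cells were a C57Bl/6 pro-B line transformed with the Abelson murine leukaemia virus (A-MuLV). All 3 groups carried Ebf1 fl/fl alleles with RERTCre, a tamoxifen-inducible Cre recombinase, and per the labels' descriptions all received 4-hydroxytamoxifen at 2 µM to delete Ebf1, the gene of a B-lineage transcription factor. Mock cells were mock-transduced and collected on day 4 after tamoxifen, ahead of cell death. EBF1wt cells carried full-length EBF1 from the retroviral vector pmys-EBF1wt-IRES-GFP, and EBF1ΔC cells carried EBF1 lacking its C-terminal domain from pmys-EBF1ΔC-IRES-GFP. In these groups tamoxifen was added 24 h after transduction, GFP-positive cells were sorted on day 5 and the cells went into the assay more than 2 weeks after that. There were 3 arrays in every group. For EBF1wt replicate 3 tamoxifen is named in the description and not in the source name. No label says whether replicates were separate cultures, so p-values may measure technical spread only.

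Histone proteins wrap DNA into nucleosomes: H2A, H2B, H3 and H4 form the core and H1 binds the linker. Replication-dependent histone genes are switched on at the start of S phase, when new DNA has to be packaged, and most lie in clusters. Their main transcripts end in a conserved stem-loop bound by SLBP and carry no poly(A) tail, although some of these genes also yield polyadenylated transcripts. The naming rule also took in testis genes (Hist1h1t and Hist1h2ba) and the pseudogene Hist3h2bb-ps, for which this may not hold. The labelling kit named in the labels primes cDNA synthesis from poly(A), so tail-less histone mRNA is not what it was designed to copy.

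Probes that hold stem-loop letters are shown first, since the stem-loop lies at the end of the tail-less transcript. The 16 bases searched, as they stand in Hist1h3a, were found whole in 1 of 41174 probes, that of Hist1h3a. The first 11 bases stood in 2 probes, of Hist1h3a and Hist1h2ab, and the last 12 in 2 probes, of Hist1h3a and Hist1h2ae. The Hist1h2ae probe begins inside the stem-loop, so most of its bases lie past it. Windows of 30 bases from the 3 probes follow, with the stem-loop letters in capitals.
Hist1h3a: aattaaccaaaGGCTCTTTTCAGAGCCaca
Hist1h2ab: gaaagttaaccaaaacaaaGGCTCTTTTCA
Hist1h2ae: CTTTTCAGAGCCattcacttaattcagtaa

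Some histone genes of a family are near-identical, so some probes cannot tell these copies apart. The 3 H2B probes below are shown because they carry much of the signal that was lower than in Mock. Capitals mark bases that differ from the Hist1h2bk probe A_52_P388224 (mm9, chr13:22127928-22127987, plus strand). The Hist1h2bm probe differed from it at 2 of 60 bases and that of the pseudogene Hist3h2bb-ps at 3 of the 58 bases they share.
Hist1h2bk: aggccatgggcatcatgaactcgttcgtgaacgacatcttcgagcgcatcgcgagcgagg
Hist1h2bm: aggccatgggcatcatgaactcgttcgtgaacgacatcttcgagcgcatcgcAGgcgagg
Hist3h2bb-ps: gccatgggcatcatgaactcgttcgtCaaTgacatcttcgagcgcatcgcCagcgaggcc

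Among the H2A probes that were higher than in Mock, 3 also overlap. Capitals mark bases that differ from the Hist1h2ak probe (mm9, chr13:21845637-21845696, minus strand). The Hist1h2ai probe differed at 5 of 60 bases, and the Hist1h2af probe A_52_P498210 was identical over the 40 bases it shares with it.
Hist1h2ak: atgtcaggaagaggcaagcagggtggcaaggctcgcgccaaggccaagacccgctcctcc
Hist1h2ai: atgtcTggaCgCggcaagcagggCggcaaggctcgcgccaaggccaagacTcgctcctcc
Hist1h2af: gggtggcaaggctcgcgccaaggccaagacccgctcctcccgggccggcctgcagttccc
Results for the probes of such a group are therefore not independent measurements of separate genes. Runs of 20 or more shared bases also joined the probes of Hist1h2aa, Hist1h2ao and Hist1h2af A_52_P165633, those of Hist1h4a and Hist1h4d A_51_P482070, those of Hist1h4f, Hist2h4 and Hist1h4d A_51_P136097, and the pair of Hist2h2ac probes.

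Values are log2 signals minus that of the array's own 75th percentile, and each probe is compared only with itself across arrays. A probe was tested where some group had it well above background on each of its 3 arrays, which 22357 probes met. They included 37 histone probes of 31 genes, of which 35 were well above background on all 9 arrays and none was saturated. Among the 9 histone probes not tested, 4 were above background on no array. A probe was called when its Benjamini-Hochberg adjusted p from limma was under 0.05 and its change at least 2-fold.

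Of all probes 54.3% to 56.9% were well above background on Mock arrays, and 50.8% to 53.4% on the EBF1 arrays, with no overlap. The part of this in the comparisons with Mock was not tested. An Ebf1 probe, A_51_P188054, read 1.17 to 1.73 on Mock arrays, 2.87 to 3.17 on EBF1wt arrays and 3.74 to 3.85 on EBF1ΔC arrays. A second one, A_52_P531838, read -3.03 to -2.32 on Mock arrays and was above background on no EBF1wt or EBF1ΔC array; where either lies relative to the deleted or vector-borne part is not given in the sources used here. All 13 pro-B and B-lineage markers were well above background on all 9 arrays. The summed signal of the 13 ran from 475 to 484 times the 75th percentile in Mock, from 1340 to 1470 in EBF1wt and from 1330 to 1450 in EBF1ΔC. That of 5 mature B markers ran from 51.5 to 59.1, from 4.29 to 9.79 and from 5.07 to 8.05, in the same order, with Fcer2a above background on no array of either EBF1 group. That of 4 plasma cell markers ran from 8.64 to 9.15, from 2.09 to 2.41 and from 1.51 to 2.01, with Prdm1 above background on no array. Of the other marker lists, 1 of 9 myeloid, 3 of 10 T and NK, 0 of 6 erythroid and 0 of 5 stromal genes were above background on every array. The part of these markers in the histone results was not tested.

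Some arrays sat low for histones as a whole. Mock replicate 1 gave the lowest Mock value for 33 of the 35 probes measured on all arrays, and EBF1ΔC replicate 3 the lowest EBF1ΔC value for 31 of 35. Calls gained or lost without 1 array are given with the probe. Mock arrays shared neither a slide nor a scan day with the other groups, and the cells also differed in time after tamoxifen, sorting and length of culture, so that these cannot be told apart from EBF1 in any comparison with Mock. The levels are those of bulk RNA, in which a change in the share of S-phase cells cannot be told apart from a change in RNA per cell.

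The first comparison set cells rescued with full-length EBF1 against Mock. Histone H2A and H4 probes were mostly higher with EBF1wt and H2B probes mostly lower. In all, 7 histone probes were called higher and 7 lower, against 6.09% and 17.4% of all tested probes. On the adjusted p alone 22 of 37 were higher and 9 lower, against 35.3% and 31.6% of all tested probes (66.9% in either direction). The median histone difference was 0.49, and that of all tested probes 0.04. EBF1ΔC against Mock, which shares the Mock arrays, gave 8 probes called higher and 6 lower, against 6.04% and 16.3% of all tested probes. On the adjusted p alone 22 were higher and 8 lower, against 33.9% and 30.8% (64.7% in either direction), with medians of 0.66 and 0.04.

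The split depends on the scaling. When arrays were scaled to their median in place of the 75th percentile, the median difference of all tested probes moved from 0.04 to 0.75 for EBF1wt and to 0.58 for EBF1ΔC. Under that scaling 22 histone probes were called higher and 1 lower with EBF1wt, and 21 and 1 with EBF1ΔC. The share of all tested probes called under that scaling is not given here, so these counts are not read as a result about histones. Scaling to the median or to the 75th percentile subtracts a constant from each array. Set against the median of all tested probes, the family medians are therefore the same under both by construction. With EBF1wt they were 0.64 for H2A, 0.58 for H4, -0.11 for H3, -0.21 for H1 and -1.12 for H2B. With EBF1ΔC they were 0.78, 0.81, 0.16, -0.36 and -1.21 in the same order. Quantile normalization kept these signs apart from H3 with EBF1ΔC, at -0.23.

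**Figure D1:**
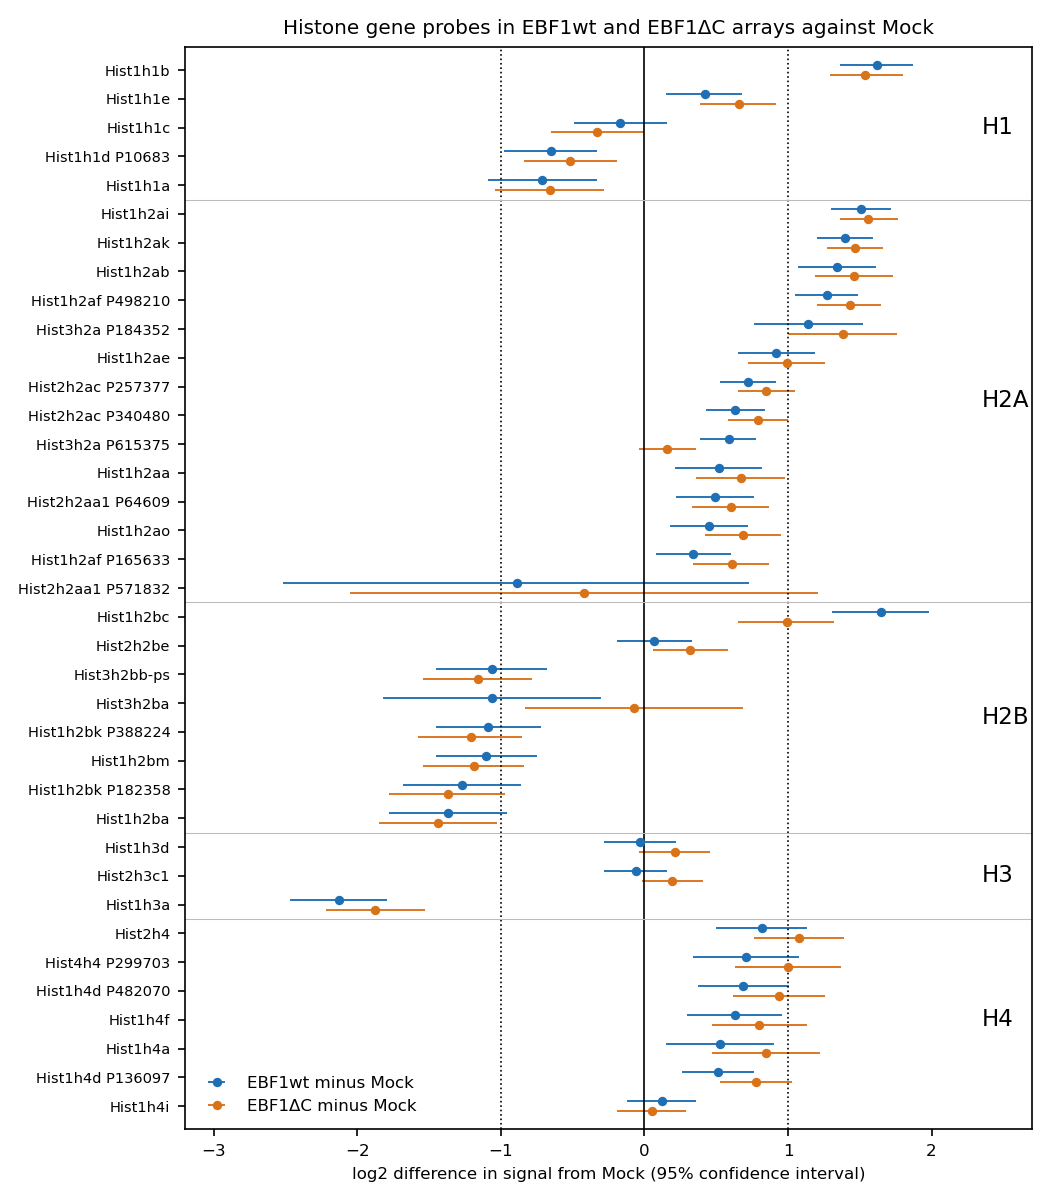
Log2 difference in signal from Mock (x axis) for the 37 tested histone probes, ordered by family; points are the limma estimates for EBF1wt and EBF1ΔC, lines their 95% confidence intervals, and dotted lines mark a 2-fold change. H2A and H4 probes lie mostly to the right of 0, and 5 H2B probes and Hist1h3a lie below -1 in both groups.

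Linker histones moved both ways. Of 5 tested H1 probes, 1 was called higher and none lower in either comparison. The shares of all tested probes were 6.09% higher and 17.4% lower with EBF1wt, and 6.04% and 16.3% with EBF1ΔC. Hist1h1b encodes H1.5, a main somatic H1. Its probe read 3.58, 3.78 and 3.63 on the Mock arrays, 5.20, 5.26 and 5.38 on the EBF1wt arrays and 5.28, 5.34 and 5.0 on the EBF1ΔC arrays. All 6 EBF1 arrays lay above all Mock arrays. The difference from Mock was 1.62 ± 0.11 (SE; 3.07-fold, limma adjusted p = 9.04e-06) with EBF1wt and 1.54 ± 0.11 (2.92-fold, adjusted p = 1.2e-05) with EBF1ΔC.

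Hist1h1e, the gene of H1.4, rose by less than 2-fold, by 0.42 ± 0.12 with EBF1wt and 0.66 ± 0.12 with EBF1ΔC (limma adjusted p = 0.0122 and 0.00126). Hist1h1a and Hist1h1d, encoding H1.1 and H1.3, passed the adjusted p as lower with differences of -0.71 and -0.65 with EBF1wt and -0.66 and -0.52 with EBF1ΔC, but under median scaling 0 of 5 H1 probes passed as lower. Hist1h1c, the gene of H1.2, read 0.21, 0.13 and 0.16 on Mock, -0.17, 0.19 and -0.03 on EBF1wt and 0.04, -0.08 and -0.45 on EBF1ΔC arrays. Its EBF1wt values overlapped Mock and neither difference passed the test (-0.17, 95% interval -0.49 to 0.16, and -0.33, interval -0.65 to 0.00). A second Hist1h1d probe, A_51_P501260, was above background on no array. The testis-specific Hist1h1t was above background on 1 Mock array and was not tested.

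H2A was the family with the most tested probes and the most probes higher than Mock. Of 14 tested H2A probes, 5 were called higher and none lower in either comparison. The share of all tested probes called higher was 6.09% with EBF1wt and 6.04% with EBF1ΔC. On the adjusted p alone 13 H2A probes were higher with EBF1wt and 12 with EBF1ΔC, against 35.3% and 33.9% of all tested probes. Of 7 tested H4 probes, 6 were higher on the adjusted p in each comparison, so the rise was not particular to H2A. Hist1h2ai read 5.11, 5.22 and 5.27 on Mock, 6.74, 6.62 and 6.76 on EBF1wt and 6.75, 6.88 and 6.65 on EBF1ΔC arrays. The groups did not overlap, and the differences from Mock were 1.51 ± 0.09 (2.85-fold, limma adjusted p = 4.32e-06) and 1.56 ± 0.09 (2.96-fold, adjusted p = 3.9e-06).

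Hist1h2ak, whose probe overlaps that of Hist1h2ai, gave 5.78, 5.89 and 5.94 on Mock, 7.37, 7.20 and 7.23 on EBF1wt and 7.36, 7.40 and 7.25 on EBF1ΔC arrays, differences of 1.4 and 1.47. The Hist1h2af probe A_52_P498210 gave 6.79, 6.89 and 6.88 on Mock, 8.07, 8.11 and 8.20 on EBF1wt and 8.38, 8.37 and 8.09 on EBF1ΔC arrays, differences of 1.27 and 1.43. All 3 overlapping probes thus stood above Mock on every EBF1 array, and their group means differed from Mock by 2.41-fold to 2.96-fold. Under quantile normalization the EBF1wt difference of this Hist1h2af probe was 0.97, short of 2-fold.

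A probe with no long run in common with these behaved alike. Hist1h2ab, whose probe ends inside the stem-loop, read 6.44, 6.84 and 6.54 on Mock, 7.92, 8.03 and 7.90 on EBF1wt and 8.10, 8.18 and 7.93 on EBF1ΔC arrays. Its differences were 1.34 ± 0.12 (limma adjusted p = 3.26e-05) and 1.46 ± 0.12 (adjusted p = 2.2e-05), with no overlap between Mock and the EBF1 arrays. Hist1h2ae has a probe that begins inside the stem-loop and lies mostly past it. This probe passed the adjusted p with 0.92 ± 0.12 and 0.99 ± 0.12. Without Mock replicate 2 it was called in both comparisons (1.02 and 1.09), as it was with EBF1ΔC without EBF1ΔC replicate 2 (1.01).

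Hist3h2a lies outside the main clusters, and its probes gave different sizes. Probe A_52_P184352 (mm9, chr11:58768387-58768446) read 6.37, 6.55 and 6.38 on Mock, 7.32, 7.63 and 7.76 on EBF1wt and 7.99, 7.98 and 7.47 on EBF1ΔC arrays, differences of 1.14 ± 0.17 and 1.38 ± 0.17 (limma adjusted p = 0.000441 and 0.000166). The EBF1wt difference was 0.83 under quantile normalization and 0.91 with normexp correction, both short of 2-fold. Probe A_52_P615375 (chr11:58768954-58769013) starts 567 bases further along, where the RefSeq gene is 508 bases long. It read 1.07, 1.18 and 1.1 on Mock, 1.69, 1.81 and 1.60 on EBF1wt and 1.27, 1.19 and 1.36 on EBF1ΔC arrays. Its difference from Mock was 0.59 ± 0.09 with EBF1wt (limma adjusted p = 0.000468) and 0.16 ± 0.09 with EBF1ΔC, which did not pass the test (adjusted p = 0.136).

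The smallest of the 13 H2A increases with EBF1wt came from the other Hist1h2af probe, A_52_P165633, which read 8.77, 8.86 and 8.91 on Mock, 9.20, 9.07 and 9.28 on EBF1wt and 9.44, 9.66 and 9.26 on EBF1ΔC arrays (differences of 0.34 and 0.61, limma adjusted p = 0.0276 and 0.0018). It lies 308 bases downstream of A_52_P498210 and shares 44 bases in a row with the Hist1h2aa probe. Hist1h2aa, Hist1h2ao, Hist2h2ac and the Hist2h2aa1 probe A_52_P64609 were higher by 0.45 to 0.72 with EBF1wt and by 0.60 to 0.85 with EBF1ΔC. A second Hist2h2aa1 probe, A_52_P571832, was above background on all Mock arrays, on no EBF1wt array and on 1 EBF1ΔC array. Its mean was at least 1.39-fold lower with EBF1wt, a bound that leaves out the spread between arrays. The EBF1wt difference did not pass the test (-0.89, interval -2.52 to 0.73, limma adjusted p = 0.291). This probe was called lower with EBF1ΔC without EBF1ΔC replicate 3, the 1 array of that group above background. Hist2h2aa1 A_52_P367755 was above background on 2 Mock arrays alone, and Hist1h2ac and Hist1h2al on none.

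**Figure D2:**
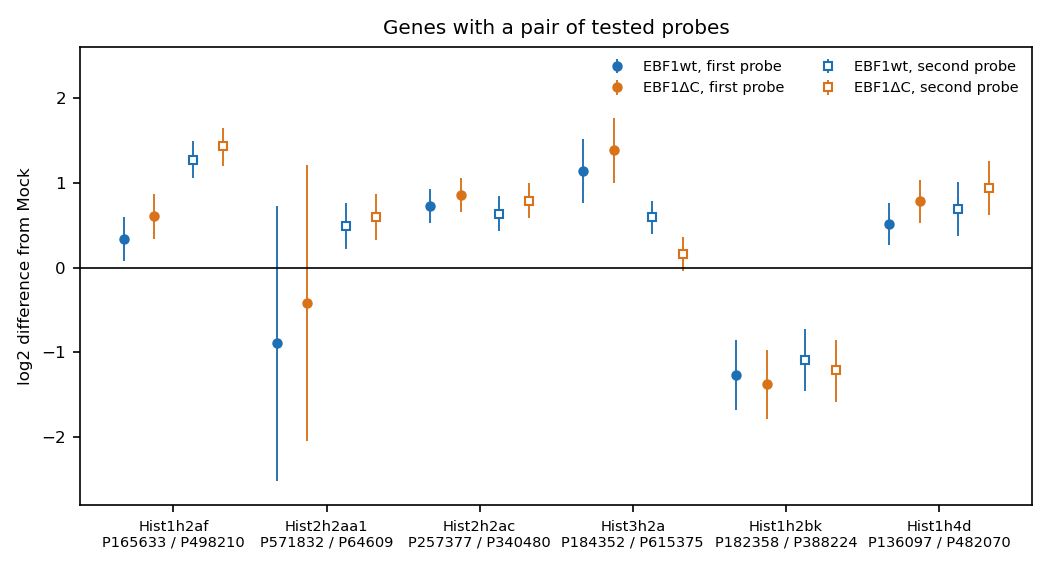
Log2 difference from Mock (y axis) for the 6 genes with a pair of tested probes, named under each gene in the order drawn; filled and open symbols are the first and second probe, and lines are 95% confidence intervals. The Hist1h2bk probes lie together below -1, the Hist1h2af and Hist3h2a probes differ in size, and the first Hist2h2aa1 probe was near the detection limit.

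H2B went the other way. Of 8 tested H2B probes, 6 were called lower and 1 higher with EBF1wt, and 5 were called lower and none higher with EBF1ΔC. The shares of all tested probes were 17.4% lower and 6.09% higher with EBF1wt, and 16.3% and 6.04% with EBF1ΔC. Under median scaling 0 H2B probes were called lower in either comparison, although 6 and 5 of the 8 differences stayed below 0. Hist1h2ba, a gene best known from testis, read 4.36, 4.46 and 4.59 on Mock, 3.11, 3.36 and 2.82 on EBF1wt and 3.05, 3.31 and 2.72 on EBF1ΔC arrays. No EBF1 array reached the Mock range, and the differences were -1.37 ± 0.18 (2.59-fold lower, limma adjusted p = 0.000236) and -1.44 ± 0.18 (2.72-fold lower, adjusted p = 0.000186).

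Both probes of Hist1h2bk, which codes for a core H2B, were called lower. Probe A_51_P182358 read 4.43, 4.69 and 4.79 on Mock, 3.27, 3.65 and 3.18 on EBF1wt and 3.26, 3.54 and 2.98 on EBF1ΔC arrays, differences of -1.27 ± 0.18 and -1.37 ± 0.18. Probe A_52_P388224, starting 66 bases further along, read 5.23, 5.33 and 5.34 on Mock, 4.22, 4.49 and 3.93 on EBF1wt and 4.09, 4.32 and 3.86 on EBF1ΔC arrays, differences of -1.09 ± 0.16 and -1.21 ± 0.16. The groups of EBF1 arrays did not overlap Mock for either probe (limma adjusted p from 0.000244 to 0.000457).

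The probes that share most of their bases with A_52_P388224 gave the same order. Hist1h2bm, another core H2B gene, read 5.27, 5.41 and 5.41 on Mock, 4.27, 4.48 and 4.02 on EBF1wt and 4.11, 4.45 and 3.95 on EBF1ΔC arrays (differences of -1.1 and -1.19). Hist3h2bb-ps read 4.90, 5.01 and 4.95 on Mock, 3.81, 4.16 and 3.70 on EBF1wt and 4.05, 3.87 and 3.46 on EBF1ΔC arrays (differences of -1.06 and -1.16). These 3 probes sat near the 2-fold limit, and without EBF1wt replicate 3 their EBF1wt differences were -0.99, -0.97 and, for A_52_P388224, -0.95. That left 4 H2B and H3 probes called lower in place of 7. Without EBF1ΔC replicate 3 the Hist3h2bb-ps difference from Mock with EBF1ΔC was -0.99.

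Hist1h2bc was the H2B gene that rose. Its probe (mm9, chr13:23784219-23784278) read -0.49, -0.09 and -0.43 on Mock, 1.14, 1.46 and 1.33 on EBF1wt and 0.74, 0.79 and 0.42 on EBF1ΔC arrays. The 3 groups did not overlap each other. The difference from Mock was 1.65 ± 0.15 with EBF1wt (3.13-fold, limma adjusted p = 3.33e-05) and 0.99 ± 0.15 with EBF1ΔC (1.98-fold, adjusted p = 0.000515). The latter lay just under the 2-fold limit. With EBF1ΔC the probe was called without Mock replicate 2 (1.11) or without EBF1ΔC replicate 3 (1.1).

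Hist2h2be read -0.57, -0.46 and -0.43 on Mock, -0.24, -0.64 and -0.39 on EBF1wt and -0.28, -0.15 and -0.09 on EBF1ΔC arrays. It overlapped Mock with EBF1wt (0.07, interval -0.19 to 0.33) and was 0.32 higher with EBF1ΔC (limma adjusted p = 0.0372). Hist3h2ba was above background on all Mock arrays, on no EBF1wt array and on 2 EBF1ΔC arrays, which puts EBF1wt at least 1.92-fold below Mock (limma adjusted p = 0.0204). The Hist3h2ba difference of -1.06 missed the limits when Mock replicate 3 (-0.94) or EBF1wt replicate 2 (-0.82) was left out, and normexp correction gave -0.07. Hist1h2bp was above background on 2 EBF1wt arrays and no Mock array, at least 1.22-fold higher and not tested, Hist1h2bq on 1 Mock and 1 EBF1wt array, and Hist1h2be on none.

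**Figure D3:**
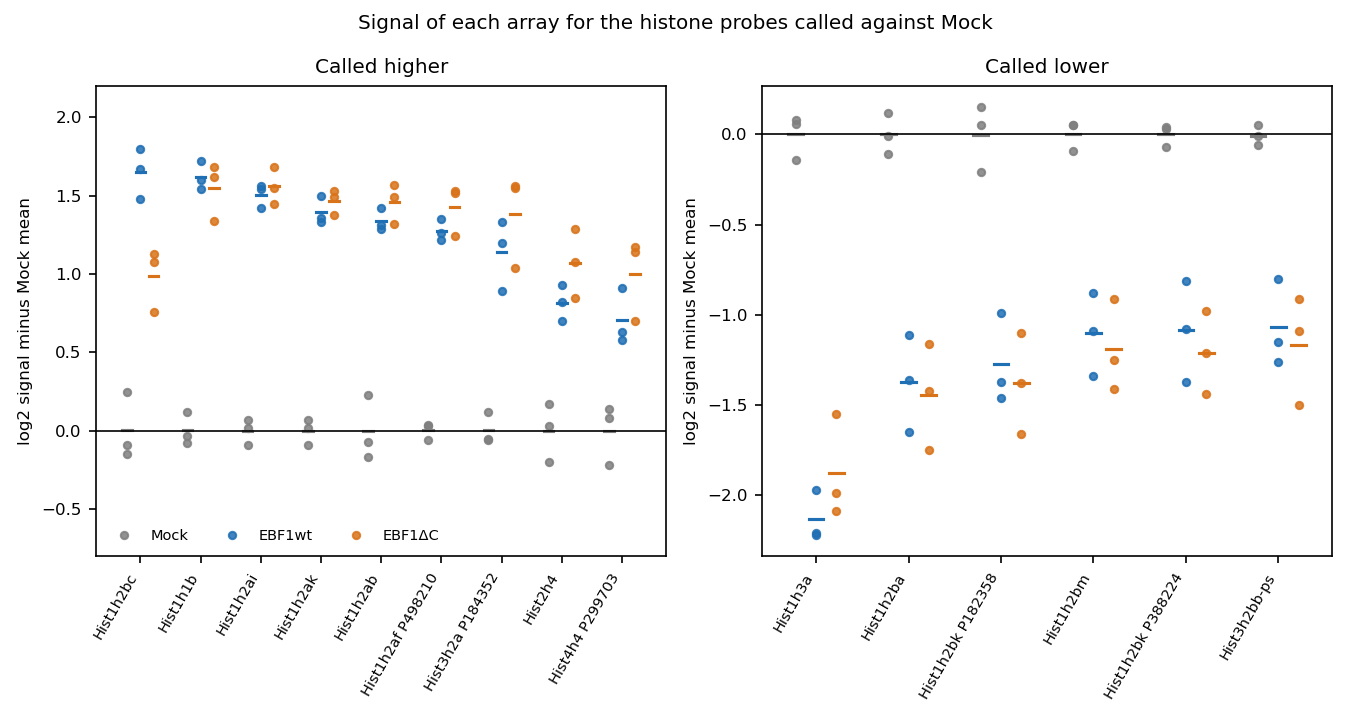
Log2 signal of each array minus the Mock mean of the probe (y axis) for histone probes called in either comparison with Mock and measured on all 9 arrays; points are arrays and short bars group means. Every EBF1 array lies above every Mock array in the left panel and below every Mock array in the right panel, and Hist1h2bc is lower in EBF1ΔC than in EBF1wt.

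H3 had the largest decrease among the 37 tested replication-dependent histone probes, in 1 of its 3 genes. Hist1h3a codes for H3.1, and its probe (mm9, chr13:23853756-23853815) is the one that holds the whole stem-loop. It read 2.30, 2.52 and 2.50 on Mock, 0.22, 0.47 and 0.23 on EBF1wt and 0.45, 0.89 and 0.35 on EBF1ΔC arrays. The EBF1 arrays lay far below Mock, by -2.13 ± 0.15 (4.38-fold lower, limma adjusted p = 9.81e-06) and -1.88 ± 0.15 (3.67-fold lower, adjusted p = 1.96e-05). It was the 1 histone probe still called lower under median scaling.

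The other H3 probes moved little. Hist1h3d read 6.33, 6.43 and 6.48 on Mock, 6.43, 6.32 and 6.40 on EBF1wt and 6.55, 6.84 and 6.47 on EBF1ΔC arrays, differences of -0.03 (interval -0.28 to 0.22) and 0.21 (-0.04 to 0.46). Hist2h3c1 read 6.77, 6.83 and 6.88 on Mock, 6.86, 6.68 and 6.76 on EBF1wt and 6.96, 7.18 and 6.92 on EBF1ΔC arrays, differences of -0.06 (interval -0.28 to 0.16) and 0.19 (-0.02 to 0.41). Neither passed the test here, but under quantile normalization both passed as lower with EBF1wt and under median scaling both passed as higher, so no direction is given.

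H4 probes were mostly higher, by less than the largest H2A differences. Of 7 tested, 6 passed the adjusted p as higher in each comparison and none as lower, while 0 and 2 reached 2-fold. Of all tested probes 35.3% and 33.9% passed as higher, and 6.09% and 6.04% were called higher. Hist2h4 stood at 7.35 ± 0.19 (SD, n = 3) on Mock, 8.17 ± 0.11 on EBF1wt and 8.42 ± 0.22 on EBF1ΔC arrays, differences of 0.82 ± 0.14 and 1.08 ± 0.14 (SE; limma adjusted p = 0.000943 and 0.000229). Hist4h4, an isolated H4 gene on chromosome 6, stood at 5.45 ± 0.19, 6.16 ± 0.18 and 6.45 ± 0.26 by its probe A_52_P299703, differences of 0.71 ± 0.16 and 1.00 ± 0.16.

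The 2-fold calls of Hist2h4 and Hist4h4 with EBF1ΔC were narrow. Without Mock replicate 1 the differences were 0.97 and 0.89, without EBF1ΔC replicate 2 0.97 and 0.92, and without EBF1ΔC replicate 1 that of Hist4h4 was 0.93. Under quantile normalization they were 0.78 and 0.75, and with the authors' log2 values 0.88 and 0.63. Hist1h4a, both probes of Hist1h4d and Hist1h4f were higher by 0.51 to 0.69 with EBF1wt and by 0.78 to 0.94 with EBF1ΔC. The Hist1h4d probe A_51_P482070 was called with EBF1ΔC without Mock replicate 2 (1.07) or EBF1ΔC replicate 3 (1.01). Hist1h4i read 2.55, 2.73 and 2.7 on Mock, 2.87, 2.58 and 2.89 on EBF1wt and 2.75, 2.76 and 2.63 on EBF1ΔC arrays. Its groups overlapped and the differences of 0.12 (interval -0.12 to 0.36) and 0.05 (-0.19 to 0.29) did not pass the test. Under quantile normalization 1 of the 7 H4 differences was below 0 in each comparison. The second Hist4h4 probe, A_51_P148860, starts 1612 bases away in mm9, against a RefSeq gene length of 439, and was above background on 1 Mock array.

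The second question was whether EBF1 without its C-terminal domain left histone genes at other levels than full-length EBF1. No histone probe was called in EBF1ΔC against EBF1wt by limma, against 1.99% of all tested probes. Of the 35 probes measured on all 9 arrays, 34 had a 95% interval of the difference that stayed within 2-fold either way. Their differences ran from -0.66 to 0.32, with 25 above 0 and 10 below under the main scaling. Under median scaling the median of all tested probes moved to -0.16, and 16 of the 37 histone differences were above 0. The summed signal of the 9 myeloid markers ran from 0.512 to 2.74 times the 75th percentile in EBF1wt and from 7.94 to 15.5 in EBF1ΔC. Only Lyz2 among them was above background on any EBF1wt array, and only Lyz2 and Cd14 on any EBF1ΔC array. That of the 10 T and NK markers ran from 2.78 to 5.56 and from 9.79 to 11.5. Cd3g, Cd4, Cd8a, Gata3, Nkg7 and Tcf7 were above background on no array of either EBF1 group, and Cd3d on no EBF1wt array. Their part in the differences was not tested.

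On the adjusted p alone 2 histone probes differed, both lower with EBF1ΔC, against 5.59% of all tested probes in either direction. Hist1h2bc was lower by -0.66 ± 0.15 (limma adjusted p = 0.0394), and the downstream Hist3h2a probe A_52_P615375 by -0.43 ± 0.09 (adjusted p = 0.0283). These passes were narrow. With other processing or fewer arrays the adjusted p missed 0.05 in 12 of 22 fits for Hist1h2bc and in 10 of 21 for the Hist3h2a probe, among them median scaling (0.0849 and 0.0998) and the slide as a fixed block (0.232 and 0.29). The difference stayed below 0 in all of these fits. For both, the lowest EBF1wt array lay above the highest EBF1ΔC array. Slides 4 and 5 each held 1 array of either group. Within them the difference was -1.04 and -0.59 for Hist1h2bc, and -0.45 and -0.34 for the Hist3h2a probe. The first Hist3h2a probe differed by 0.24 (interval -0.14 to 0.62), with overlapping groups.

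Hist3h2ba was above background on 2 of 3 EBF1ΔC arrays and on no EBF1wt array. This gives only a bound on the means, at least 1.82-fold higher in EBF1ΔC, that leaves out the spread between arrays. The probe did not pass the test (difference 0.98, interval 0.23 to 1.74, limma adjusted p = 0.134). Without EBF1ΔC replicate 3, the array not above background, it was called (adjusted p = 0.0286), against the same EBF1wt arrays below background.

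For the H2B genes lower than Mock the EBF1 groups were alike in mean and wide in spread. Hist1h2ba differed by -0.07 (interval -0.48 to 0.34), Hist1h2bm by -0.09 (-0.44 to 0.26), and Hist1h2bk by -0.10 (-0.51 to 0.30) and -0.12 (-0.49 to 0.24). Within slide 4 these probes differed by -0.67 to -0.53 and within slide 5 by 0.08 to 0.23. The slides thus gave opposite signs, and EBF1ΔC replicate 3, the array that sat low for most histones, is on slide 4. H4 differences were above 0 for 6 of 7 probes and reached 0.32 for Hist1h4a (interval -0.06 to 0.69), and H3 differences ran from 0.24 to 0.26, none passing the adjusted p.

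**Figure D4:**
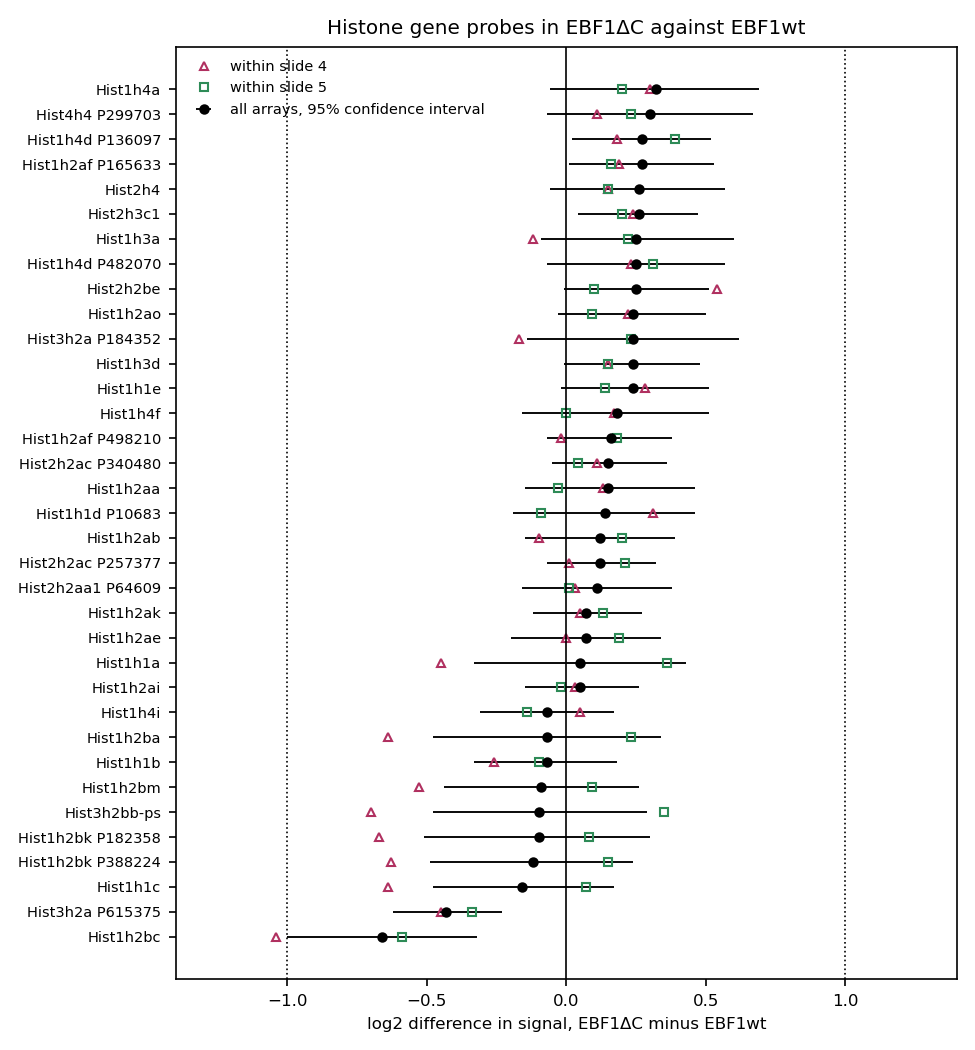
Log2 difference between EBF1ΔC and EBF1wt (x axis) for the 35 histone probes measured on all 9 arrays; black points and lines are the limma estimates with 95% confidence intervals, triangles and squares the difference between the arrays that share slide 4 or slide 5, and dotted lines mark 2-fold. All intervals but that of Hist1h2bc stay within 2-fold, and several H2B probes have opposite signs on the 2 slides.

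Promoters were read from RefSeq windows of 300 bases (250 before and 50 after the start, GRCm38.p6), which were found for 31 of the 37 genes as 32 windows. The CCAAT box (CCAAT, either strand) stood in 29 of 32, against 37.4% of all 32851 windows. The octamer ATTTGCAT, the site of Oct factors named for H2B promoters, stood in 4 of 8 H2B and 6 of 11 H2A windows and in no H1, H3 or H4 window, against 1.74% of all windows. TATAAA on either strand stood in 20 of 32, against 13.6%. CCCNNGGG, the core of a palindrome of the kind EBF1 binds, stood in 2 of 32, against 13.7%. Windows were matched by gene and not by probe position, and for near-identical copies these can differ: the Hist1h2ai probe lies on the minus strand in the files and the matched gene on the plus strand. These are letters in a window and not evidence of binding or its absence.

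Stretches of 150 bases up to the start follow for genes lower and higher than Mock, with CCAAT, octamer and TATAAA letters in capitals. They are Hist1h2bk (chr13:22035671-22035820, plus strand) and Hist1h2bm (chr13:21721894-21722043, plus strand), then Hist1h2ak (chr13:21753913-21754062, minus strand) and Hist1h1b (chr13:21780626-21780775, minus strand).
Hist1h2bk: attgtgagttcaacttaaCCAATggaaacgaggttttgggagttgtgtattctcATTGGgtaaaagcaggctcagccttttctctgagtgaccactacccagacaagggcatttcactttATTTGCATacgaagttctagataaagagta
Hist1h2bm: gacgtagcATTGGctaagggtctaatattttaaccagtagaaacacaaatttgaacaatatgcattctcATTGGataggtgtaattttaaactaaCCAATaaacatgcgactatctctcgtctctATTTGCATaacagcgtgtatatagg
Hist1h2ak: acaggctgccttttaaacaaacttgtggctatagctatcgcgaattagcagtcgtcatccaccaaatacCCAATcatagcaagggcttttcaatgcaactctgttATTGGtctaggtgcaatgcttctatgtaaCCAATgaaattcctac
Hist1h1b: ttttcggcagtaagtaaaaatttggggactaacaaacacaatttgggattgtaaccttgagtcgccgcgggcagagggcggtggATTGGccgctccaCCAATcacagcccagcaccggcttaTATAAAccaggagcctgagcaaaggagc
Both H2B stretches hold the octamer and the other 2 do not. The octamer also stood in windows of genes higher than Mock, such as Hist1h2ab and Hist3h2a.

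Genes around the histones were read as lists, with 1 probe per gene. Of 12 tested replication-independent histones, 8 passed the adjusted p as higher and 2 as lower with EBF1wt, and 8 and 3 with EBF1ΔC. The share of all tested probes that passed, for this and the following lists, was 35.3% as higher and 31.6% as lower with EBF1wt, and 33.9% and 30.8% with EBF1ΔC. H2afz, the gene of the variant H2A.Z, was higher by 0.99 ± 0.12 and 1.12 ± 0.12, the latter called, and H2afx, of H2A.X, by 0.90 ± 0.11 and 0.83 ± 0.11. The oocyte linker histone H1foo was called lower (-2.04 and -1.63), as was H2afy3, above background on 1 EBF1wt and no EBF1ΔC array. H2afj counts as higher by the brighter of its probes, while the other was lower (-0.77 and -0.92).

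None of 27 genes of histone transcription and mRNA processing was called. On the adjusted p alone 11 were higher and 3 lower in each comparison, with medians of 0.20 and 0.22, so that the share higher was near that of all tested probes. Slbp, which binds the stem-loop, was higher by 0.50 ± 0.11 and 0.51 ± 0.11, Cpsf2, of the cleavage complex, by 0.56 and 0.61, and Eri1, an exonuclease acting on the stem-loop, by 0.50 and 0.62. Cdk2, the kinase that activates NPAT, was higher by 0.51 and 0.48. Npat, the coactivator of histone transcription, differed by 0.18 and 0.24 and did not pass the test (limma adjusted p = 0.343 and 0.206).

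None of 22 histone chaperone and import genes was called either, with 14 and 15 higher and 1 lower on the adjusted p, against 35.3% and 33.9% of all tested probes as higher and 31.6% and 30.8% as lower. The H3-H4 chaperones Asf1a (0.90 and 0.70) and Asf1b (0.50 and 0.87) and the CAF-1 subunit gene Rbbp4 (0.74 and 0.90) were higher, and Tonsl was lower (-0.61 and -0.42). Of 31 S-phase and replication genes 23 passed as higher and none as lower in each comparison, against 35.3% and 33.9% of all tested probes as higher. The medians were 0.51 and 0.44, relative to 0.04 for all tested probes under the same scaling. Called members were Rfc3, a clamp loader subunit (1.14 from 2 EBF1wt arrays, an outlier spot being left out, and 1.44), Pola1, of the primase complex (1.07 with EBF1wt), and Tyms, which makes thymidylate (1.05 with EBF1ΔC).

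Of 11 genes of general poly(A) and decay machinery, 4 passed as higher with EBF1wt and 3 with EBF1ΔC, and 3 as lower in each, shares near those of all tested probes. Papolg, a poly(A) polymerase, was called lower (-1.60 ± 0.13 and -1.12 ± 0.13). Of 11 tested growth arrest genes, 3 were called higher and 1 lower in each comparison, against 6.09% and 17.4% of all tested probes with EBF1wt and 6.04% and 16.3% with EBF1ΔC. The inhibitors Cdkn1a (1.93 and 1.64) and Cdkn2c (1.07 and 1.22) and the stress gene Gadd45a (1.83 and 1.49) were higher, and the antiproliferative Btg1 (-2.38 and -1.70) lower. No gene of the 6 lists was called in EBF1ΔC against EBF1wt by limma, against 1.99% of all tested probes. There 3 of the 11 growth arrest genes passed the adjusted p alone as higher, and none of the other 5 lists had a member passing. Of all tested probes 2.73% passed it as higher and 2.85% as lower, so few passes would be looked for in lists of this size.

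**Figure D5:**
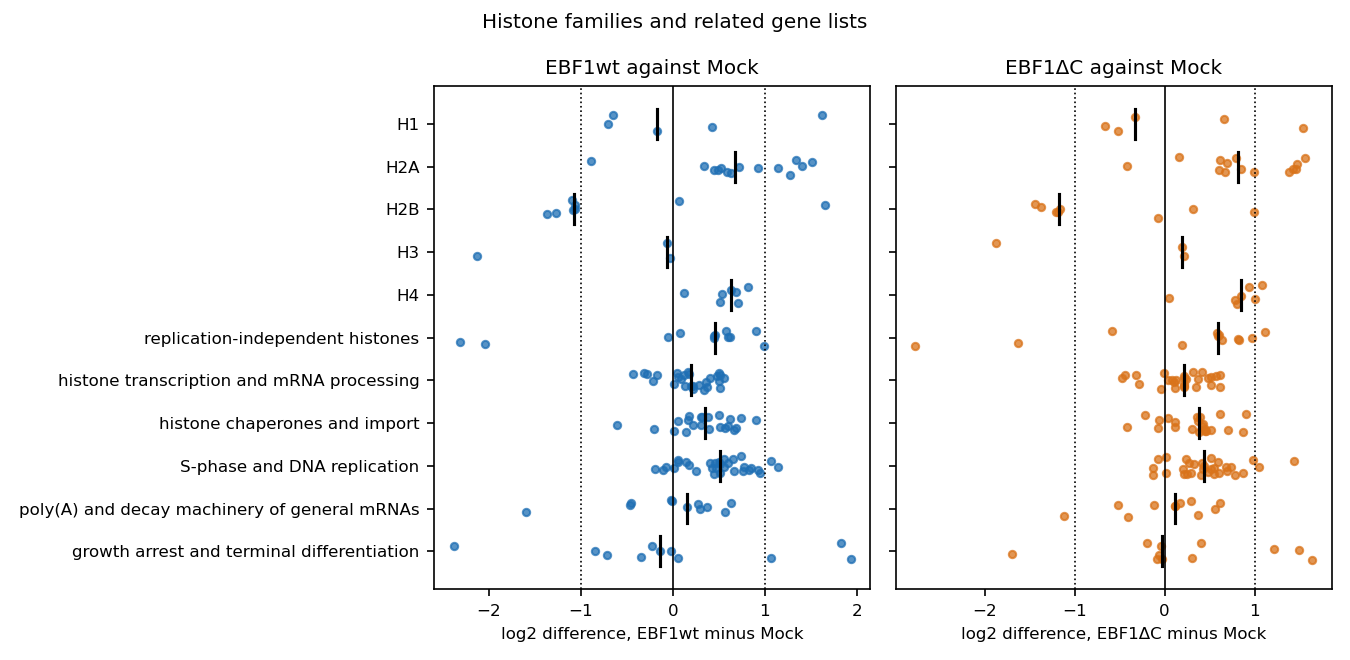
Log2 difference from Mock (x axis) for EBF1wt (left) and EBF1ΔC (right), with 1 point per tested probe of the 5 histone families and 1 per gene of the 6 lists; black bars are medians and dotted lines mark 2-fold. H2B has the lowest median, at -1.07 and -1.18, while the S-phase list has 0.51 and 0.44.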

How the data were processed

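Per the file headers, the authors' deposited intensity values come from Agilent Feature Extraction 10.5.1.1 (9.1 in the submitters' processing notes) as background-subtracted, detrended signals not normalized between arrays. The authors also deposited a table of log2 values, used as an alternative. Its columns correlated with quantile-normalized signals at r of 0.996 to 0.997, with scale and centring otherwise unstated. The array's own 75th percentile was subtracted from log2 intensity, outlier spots were left out and spots of a probe averaged. All 9 arrays entered 1 limma 3.58.1 model (R 4.3.3) with a mean per group, 6 residual degrees of freedom and two-sided moderated tests, adjusted over 22357 probes, and intervals are at 95%. The script was tested on simulated data. For bounds, dim values were raised to the lowest signal well above background on their array. Bounds apply to group means and leave out the spread between arrays. Positions are those of the files (mm9).

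The members and gene lists were chosen with earlier results of these data known. Every member could be named. Values per array were given for called members without overlap (up to 6 per direction against Mock) and for the smallest changes of each family. Lists are given as counts with up to 4 named members. Chosen after their values were seen were Npat and a few further histone values.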

Additional observations from a re-analysis of the deposited data

How the results depend on the processing

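Histone counts kept within 1.5 times of the main value in most settings. With median scaling 22 probes were called higher and 1 lower with EBF1wt, and 21 and 1 with EBF1ΔC. On the adjusted p alone 22 were higher in each comparison with Mock and 2 lower in EBF1ΔC against EBF1wt. At a 1.5-fold limit 15 and 21 were higher, and 1 lower in EBF1ΔC against EBF1wt. Shares of all tested probes are not given for the median scaling and 1.5-fold counts, which are not read as results about histones. Leaving out each array gave 7 to 8 higher and 4 to 7 lower with EBF1wt, 6 to 11 and 6 to 6 with EBF1ΔC, and 0 to 1 higher between the EBF1 groups. The replicate number as a block (replicate block) left 7 and 7, 8 and 6, and 0 and 0 calls. Same-numbered arrays deviated with correlations from -0.117 to 0.195, so the numbers were not taken as a pairing. Hist3h2ba, near background, changed sign with EBF1ΔC: 0.08 with normexp, 0.43 with quantile normalization, 0.47 with median scaling, 0.07 with the authors' values and with array weights, and from -0.34 to 0.30 with each array left out, including 0.04 without Mock replicate 3. The cause was not tested. Recomputed values of single histone probes kept direction and side of the threshold in 341 of 365 cases with EBF1wt and 334 of 365 with EBF1ΔC. Counts over all probes differed by more: 582 higher and 1219 lower with EBF1wt under normexp, against 1362 and 3891. The 9 untested histone probes are limited by signal over background.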

Other observations

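Probes outside the naming rule also measured histone genes, and they were picked by their annotation after the data were seen. A probe annotated to Hist2h2bb was lower than Mock by -1.46 ± 0.15 with EBF1wt and by -1.54 ± 0.15 with EBF1ΔC (limma adjusted p = 7.65e-05 and 5.96e-05). It read -2.10, -1.79 and -1.81 on Mock, -3.35, -3.31 and -3.40 on EBF1wt and -3.55, -3.67 and -3.10 on EBF1ΔC arrays. The 2 probes of H2afj differed in sign. A_52_P407692 was higher by 0.58 and 0.82, and A_52_P286488 was lower by -0.77 and -0.92, all 4 passing the adjusted p.

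The lower H2B probes moved together from array to array. All 5 H2B probes called lower in both comparisons (Hist1h2ba, Hist1h2bk by both probes, Hist1h2bm and Hist3h2bb-ps) had their highest EBF1wt value on replicate 2, their lowest EBF1wt value on replicate 3 and their lowest EBF1ΔC value on replicate 3. EBF1wt replicate 2 gave the highest EBF1wt value for 12 of the 35 histone probes measured on all arrays and the lowest for 19. Of the 5 H2B probes, 3 share most of their bases.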
